A study of Mus musculus with 8 samples.

Results

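Mouse embryonic stem (ES) cells edited to lack both Pcgf3 and Pcgf5 (the double knockout, DKO; 2 libraries) were compared with unedited cells of wild type genotype (WT; 2 libraries). These 4 of the 8 RNA-seq libraries of the study were chosen by their titles alone. The other 4, 2 from cells lacking only Pcgf3 (Pcgf3KO) and 2 from cells lacking only Pcgf5 (Pcgf5KO), entered the fits to estimate the spread between libraries and served as references. Per the labels, every group was of strain C57BL/6 and was grown with leukemia inhibitory factor and serum on a feeder layer of fibroblasts stopped by mitomycin-C, and all knockouts were made with Cas9. The labels do not say whether a knockout is 1 clone, which part of either gene was removed, or whether the libraries of a group came from separate cultures, so the p-values below measure only the spread between these libraries.

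Pcgf3 and Pcgf5 are closely related RING finger proteins. Each is the defining subunit of a variant Polycomb repressive complex (PRC1.3 and PRC1.5), in which it pairs with the ubiquitin ligase Ring1 or Rnf2 to place ubiquitin on histone H2A. These complexes also hold Rybp or Yaf2, Auts2 or its relatives Fbrs and Fbrsl1, Dcaf7 and casein kinase 2. Polycomb complexes are best known in ES cells for keeping developmental genes silent.

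The table of WT replicate 1 lists only 8093 genes, 17.2% of the 47069 in the other tables, and genes it leaves out were treated as not measured. A fit of all 8 libraries therefore covered the genes listed everywhere (2702 tested), and a fit of 7 libraries covered all genes (15669 tested) with WT replicate 2 as the only WT library. In the 7-library fit that single library is assumed to vary like the others, and no WT replicate checks its values. Total counts were 17493194 in WT replicate 2, 18236113 and 19923964 in the DKO libraries and 12652616 to 19878585 in the single knockouts. In the genes listed everywhere the 8 libraries held 2254855 to 3558877 counts. Levels are counts-per-million (CPM). In the 7-library fit CPM are relative to all genes, and in the 8-library fit to the genes listed everywhere, which makes the 2 scales differ. A gene was called higher or lower when its Benjamini-Hochberg adjusted p (edgeR quasi-likelihood test) was at most 0.05 and both DKO libraries lay on the same side of every WT library. Log2 fold changes are DKO minus WT and are followed by their standard error. Unless the 8-library fit is named, values come from the 7-library fit.

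The markers of ES cells were present in all libraries, with a summed CPM of 1644 in WT replicate 2 and 1672 and 1802 in DKO for Pou5f1, Sox2, Nanog, Zfp42, Esrrb and Dppa5a. The 4 endoderm markers Gata6, Sox17, Sox7 and Foxa2 each stayed at or under 1.14 CPM in WT replicate 2 and DKO. Most genes of the 2-cell-like state, among them Zscan4c, Zscan4f and Zfp352, were at 0 counts. The 28 feeder fibroblast markers summed to 1582 CPM in WT replicate 2, 1531 and 1376 in DKO, 1078 and 1086 in Pcgf3KO, and 1399 and 1461 in Pcgf5KO. Fn1 (1091 CPM in WT replicate 2, 1138 and 974 in DKO) and Fstl1 (225, and 222 and 196) made up most of this sum, and the other 26 markers summed to 266 in WT replicate 2, 171 and 206 in DKO, 156 and 173 in Pcgf3KO, and 198 and 201 in Pcgf5KO. The library kit is not stated to mark strand, so reads of genes that overlap on opposite strands cannot be told apart. Among genes named below this touches Aire with Dnmt3l, Col4a1 with Col4a2, Rec114 with Nptn, Tagln with Pcsk7, Ndufa4l2 with Shmt2, Nnat with Blcap, Mest with Copg2, B2m with Patl2, Ccnd1 with LTO1, Igf2bp3 with Malsu1, Tmem88 with Naa38 and Gng3 with Bscl2.

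The targeted genes themselves were lower in DKO than in WT replicate 2, but neither passed the test in the main fit. Pcgf3 did pass with a replicate block, which is given further below. Pcgf3 (chromosome 5, positions 108461232 to 108506976 of mm10) stood at 86.6 and 67.2 CPM in the DKO libraries and at 110 in WT replicate 2, a log2 fold change of -0.51 ± 0.14 (adjusted p = 0.0899). For Pcgf5 (chromosome 19, positions 36379067 to 36456192) the DKO libraries gave 13.5 and 13.9 CPM against 20.7, or -0.60 ± 0.18 (adjusted p = 0.114). In the single knockouts Pcgf3 read 66.1 and 60.5 CPM in Pcgf3KO and 92.3 and 94.1 in Pcgf5KO. Pcgf5 read 12.3 and 9.06 CPM in Pcgf5KO and 17.3 and 17.4 in Pcgf3KO. Both DKO libraries thus lay above the matching single knockout for each gene, which did not pass the test (adjusted p = 0.251 and 0.196). Transcripts of both genes remained in the libraries labelled DKO, and counts over a whole gene do not show whether the edited part is missing. Each passed at DKO minus WT when either DKO library was left out (Pcgf3: -0.71 without replicate 1 and -0.34 without replicate 2; Pcgf5: -0.58 and -0.61), which takes the disagreement of the DKO libraries out of the spread. None of the 12 tested partners of PRC1.3 and PRC1.5 was called, and their median log2 fold change was 0.01, the same as over all genes tested. Closest was Fbrsl1, with 108 and 101 CPM in DKO against 80.9 (0.37 ± 0.10, adjusted p = 0.0873). Rnf2, the main ligase subunit in ES cells, stood at 162 and 163 CPM against 172 (-0.09 ± 0.10, adjusted p = 0.657), and Rybp at 236 and 207 against 228 (-0.04 ± 0.10, adjusted p = 0.856). Ring1 had 8.17 and 10.3 CPM against 6.26 (0.56 ± 0.21, adjusted p = 0.192) and Auts2 42.5 and 39.9 against 35.4 (0.22 ± 0.12, adjusted p = 0.339). None of the other 21 tested PRC1 subunits was called with 7 libraries either, nor any of the 7 tested members of the Tex10 complex, whose namesake stood at 185 and 189 CPM against 216 (-0.21 ± 0.09, adjusted p = 0.232). In the 8-library fit Max, the DNA-binding partner of Mga, was lower, with 508 and 498 CPM in WT and 406 and 387 in DKO (-0.34 ± 0.08, adjusted p = 0.0229).

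With all genes, 505 of 15669 (3.22%) were called: 209 stood above WT in DKO (1.33%) and 296 below it (1.89%). A change past 2-fold was reached by 118 and 128 of them. An unadjusted p of at most 0.05 was reached by 3035 genes, and 10905 (69.6%) had both DKO libraries on one side of WT replicate 2. Libraries in random order would also put both on one side of a single WT library in most genes. This share by itself therefore does not show a shift. The rule that the DKO libraries agree removed 0 of the genes that passed the test in either fit. Among the genes with 2 WT libraries, 219 of 2702 (8.11%) were called, 119 of them with higher (4.40%) and 100 with lower (3.70%) values in DKO. Past 2-fold were 49 and 31. There the libraries of the groups did not overlap in 1302 genes (48.2%), a share to which random order also adds. Of the 81 genes called with 7 libraries that both fits tested, 77 were called the same way with 8, and all 81 had the same direction. The median level of the genes that fell was 39.9 CPM in WT replicate 2 and 18.1 in DKO, while the median of the genes that rose went from 8.6 to 18.3 CPM. Genes not called had a median of 16.4 CPM in WT replicate 2 and in DKO. The WT level is part of the call, so the WT medians differ through the choice of genes. Protein coding were 192 of the 209 higher and 294 of the 296 lower genes, beside 13565 of the 15164 genes not called. How many genes were called depended on the single knockout libraries in the fit: without any 1 of these, 68 to 73 genes were higher and 97 to 106 lower, all of them among the 209 and 296. Without DKO replicate 1 or 2 the counts rose to 1224 and 2644 higher and 1261 and 2735 lower, and these held all 209 and 296.

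The 12 largest rises, ranked by the gap between WT and the nearer DKO library, were in genes of varied function. Slfn9, a Schlafen gene of the growth-regulating, interferon-inducible family, had 18.5 and 8.95 CPM in DKO and 0.683 in WT replicate 2 (4.31 ± 0.55, adjusted p = 0.00387). Its neighbour Slfn3 had 9.91 and 8.99 against 2.39 (1.98 ± 0.25, adjusted p = 0.00358). Schlafen genes are close copies of each other, so reads may be split between them. Rhox5, an X-linked homeobox gene of the reproductive tract (chromosome X, 37804842 to 37808876), had 63.3 and 77.2 CPM against 13.3 (2.40 ± 0.19, adjusted p = 0.000578). Otx2, a homeobox transcription factor of the epiblast and the anterior neural plate (chromosome 14, 48657679 to 48667644), had 13.8 and 9.83 against 1.82 (2.69 ± 0.30, adjusted p = 0.00229). Aire, known for driving tissue-restricted genes in the thymus, read 75.4 and 34.8 CPM against 6.66 (3.05 ± 0.42, adjusted p = 0.00616), and it shares positions with Dnmt3l on the other strand. As3mt, an arsenic methyltransferase, had 8.27 and 5.63 against 0.911 (2.92 ± 0.37, adjusted p = 0.00372), and the bicarbonate transporter Slc4a5 13.5 and 14.2 against 2.22 (2.64 ± 0.25, adjusted p = 0.000993). The others were Smtnl1 (2.86), Arl14epl (2.53), Lemd1 (2.09), the meiotic recombination gene Rec114 (2.01) and the epoxide hydrolase Ephx2 (1.87), all log2 fold changes that passed the test. Only called genes were ranked, so in each of the 12 both DKO libraries exceed WT replicate 2 by the rule of choice. In Slfn9, Aire and Arl14epl the DKO libraries themselves differed clearly.

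The 12 largest falls included contractile, matrix, secreted and epithelial genes. Acta2, smooth muscle alpha actin (chromosome 19, 34241090 to 34255336), dropped from 11.1 CPM in WT replicate 2 to 0.685 and 1.04 in DKO (-3.67 ± 0.27, adjusted p = 0.000563). Tagln, the actin-binding protein transgelin, went from 51.2 to 17.0 and 17.2 (-1.58 ± 0.13, adjusted p = 0.000578). Thbs1 encodes the matrix glycoprotein thrombospondin 1, and it went from 62.0 to 9.96 and 12.5 (-2.46 ± 0.16, adjusted p = 0.000476). Has2, a hyaluronan synthase, went from 12.8 to 3.90 and 2.87 CPM (-1.92 ± 0.27, adjusted p = 0.00635). Vgf, the precursor of secreted neuropeptides, fell from 44.9 to 7.06 and 10.4 (-2.36 ± 0.19, adjusted p = 0.000578), and Cpe, the peptidase that trims such precursors, from 14.3 to 4.11 and 4.74 (-1.69 ± 0.19, adjusted p = 0.00226). Of the epithelial genes, the desmosome protein Dsp fell from 70.0 to 11.6 and 16.5 CPM (-2.32 ± 0.18, adjusted p = 0.000578), and the partner keratins of simple epithelium Krt8 and Krt18 by 2.17 and 1.97 on the log2 scale. The chaperone Cryab fell by 2.09, the carbonic anhydrase Car2 by 1.67 and Efhc2, an EF-hand protein gene on chromosome X, by 3.28. All 12 passed the test by the rule of choice, and in Cryab, Car2, Efhc2 and Tagln the DKO libraries were nearly level with each other.

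**Figure D1:**
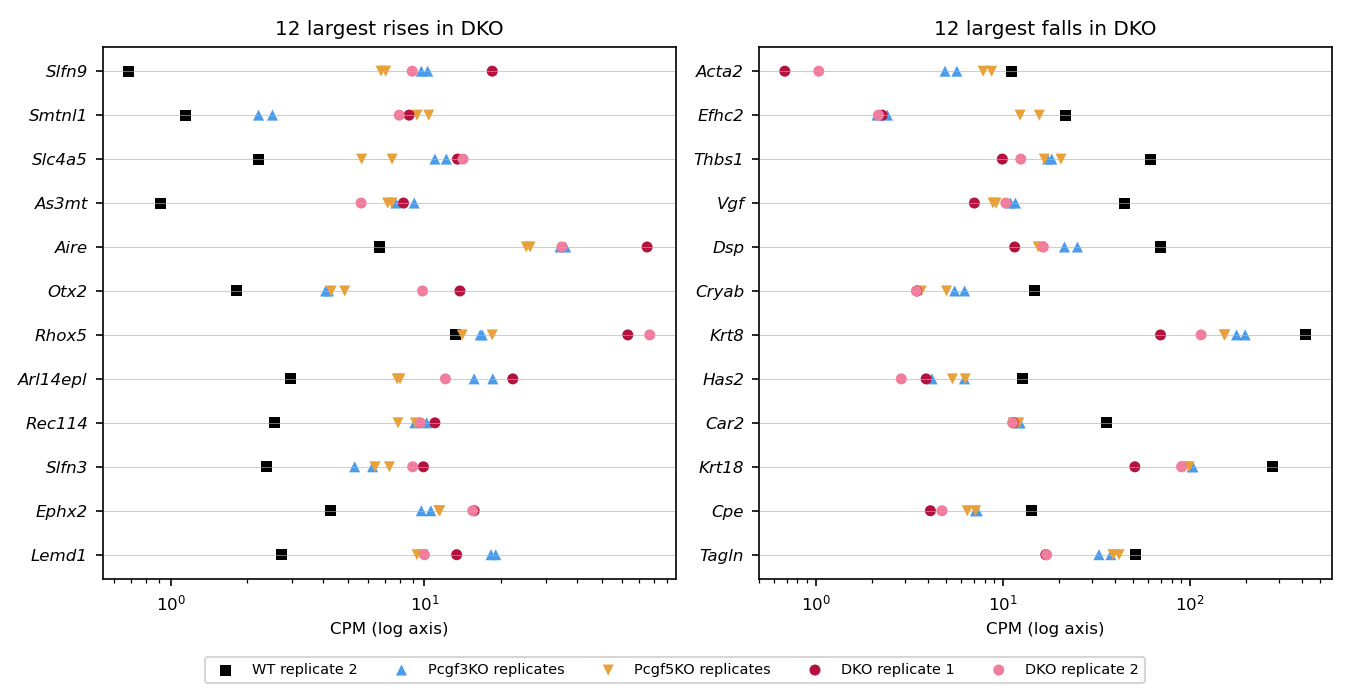
CPM per library on a log axis for the 12 largest rises (left) and the 12 largest falls (right) in DKO, 1 symbol per library and no error bars. WT replicate 2 (black squares) lies at the edge of each row. Both DKO libraries (circles) lie on one side of it, as the choice of genes required. The single knockouts (triangles) lie between for Rhox5, Otx2, Slc4a5, Slfn3 and Ephx2 on the left and for Acta2, Thbs1, Cryab, Krt8, Has2, Krt18, Cpe and Tagln on the right.

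The genes with 2 WT libraries gave values that a second WT sample checks. Platr13, a noncoding RNA gene of ES cells (chromosome 11, 41218837 to 41221096), had 6.57 and 7.07 CPM in WT and 50.1 and 49.5 in DKO in the 8-library fit (2.86 ± 0.23, adjusted p = 0.000106). Tifab had 0.571 and 0.321 CPM in WT and 11.3 and 8.1 in DKO, which rests on 3 WT and 67 DKO counts, a ratio of 21.3 with a 95% counting interval of 6.98 to 106. D1Pas1, a testis-expressed gene for an RNA helicase with a near copy on the X chromosome, had 25.4 and 28.9 CPM in WT and 103 and 77.4 in DKO (1.73 ± 0.17, adjusted p = 0.000225). In all 3 genes the WT libraries agreed to within a small part of the difference to DKO. Lemd1, Slfn3, Ndufa4l2, Pon3 and Gpat2 also rose, by 1.84 to 2.29 on the log2 scale. Csf1, a growth factor of macrophages, fell from 67.4 and 74.5 CPM to 14.9 and 22.4 (-1.92 ± 0.21, adjusted p = 0.000484). Itpkb, an inositol phosphate kinase, went from 189 and 203 to 64.1 and 80.8 (-1.44 ± 0.14, adjusted p = 0.000225), and the BMP antagonist Nog from 12.3 and 14.8 to 3.28 and 2.79 (-2.14 ± 0.39, adjusted p = 0.00736). Slc5a5, Syp, Anxa5 and Loxl4 fell by 1.49 to 1.73. Without WT replicate 2, Pon3, Gpat2, Nog and Syp missed the threshold, and Pon3 and Syp also missed it without WT replicate 1, with adjusted p of up to 0.165 for Pon3, which was lost without either Pcgf5KO library too. The counts of 119 and 100 became 29 and 31 without WT replicate 1, 52 and 42 without WT replicate 2, 64 to 83 and 61 to 68 without 1 single knockout library, 188 and 149 without DKO replicate 1, and 385 and 379 without DKO replicate 2.

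**Figure D2:**
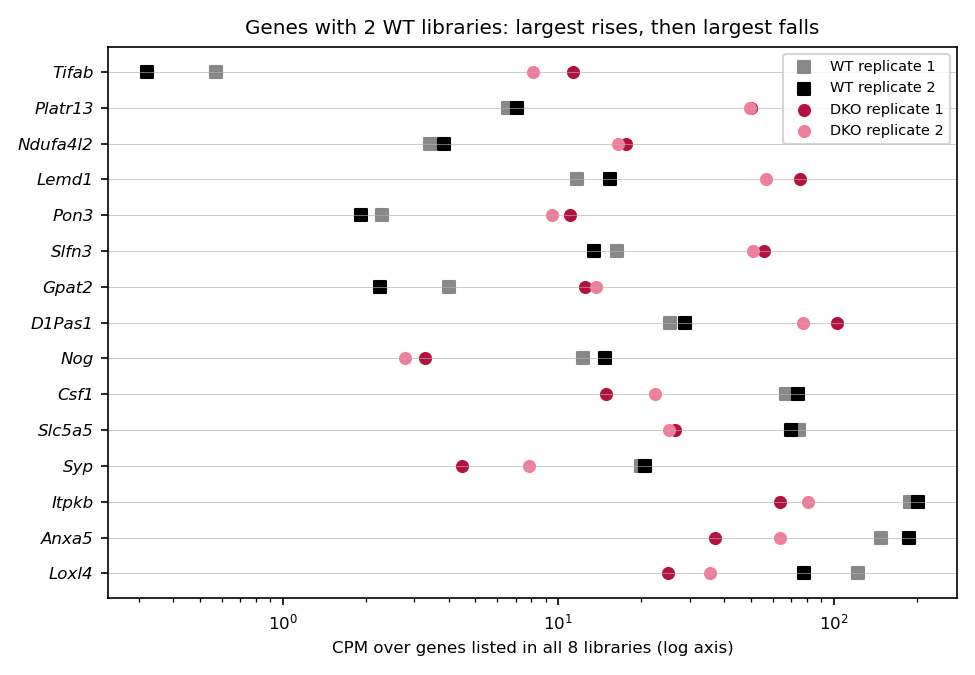
CPM over the genes listed in all 8 libraries, on a log axis, for the 8 largest rises and 7 of the 8 largest falls among genes with 2 WT libraries, 1 symbol per library. In each row both WT squares lie on one side and both DKO circles on the other, as the choice of genes required. For Platr13 the WT libraries sit at 6.57 and 7.07 and the DKO libraries at 50.1 and 49.5.

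Genes of the actin cytoskeleton and known targets of the coactivator YAP fell together. This list and those below were chosen with earlier results of these data known, so shares above those of all genes are descriptions. Of the 28 measured members of this list 16 were lower (57.1%, against 1.89% of all genes tested) and 0 higher, and 27 of the 28 had a log2 fold change below 0, with a median of -0.61 against 0.01 over all genes. Ccn1, a matricellular protein and classic YAP target, fell from 159 CPM to 41.9 and 55.6 (-1.70 ± 0.15, adjusted p = 0.000657). Its relative Ccn2 fell from 40.1 to 21.5 and 20.5 (-0.93 ± 0.12, adjusted p = 0.00453), and Amotl2, an angiomotin that binds YAP, from 230 to 121 and 136 (-0.84 ± 0.10, adjusted p = 0.00288). In all 3 both DKO libraries lay well below WT replicate 2 and close to each other relative to that distance. Acta1, skeletal muscle alpha actin and a near copy of Acta2, went from 7.46 to 1.26 and 1.19 CPM (-2.60 ± 0.29, adjusted p = 0.00226). The membrane-binding annexins Anxa3 and Anxa1 fell by 1.46 and 1.26, the galectins Lgals3 and Lgals1 by 1.23 and 0.95, and the calcium-binding S100a6, S100a10 and S100a11 by 0.98, 0.65 and 0.49 on the log2 scale. Structural members moved less: the tropomyosin Tpm1 fell by 0.54, the actin crosslinker Actn1 by 0.47 and the giant scaffold Ahnak by 0.56. Filamin A (Flna) stood at 712 and 762 CPM against 888 (-0.27 ± 0.09, adjusted p = 0.137), vinculin (Vcl) at 76.0 and 82.5 against 96.9 (-0.29 ± 0.11, adjusted p = 0.187) and the YAP partner Tead1 at 246 and 160 against 199 (0.03 ± 0.20, adjusted p = 0.954), and none of these passed. Leaving out 1 single knockout library left 9 members lower. The list median of DKO minus Pcgf3KO was -0.54 and that of DKO minus Pcgf5KO -0.32, against 0.01 and 0.02 over all genes. In the 8-library fit 2 of 4 tested members were lower, with a median of -0.30.

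Promoter sequences are shown for Acta2 and for 3 members of the list because they fell together and because each holds a short motif of the factors that act on such genes: GGAATG, the core bound by TEAD factors, or the CArG box bound by serum response factor, CC followed by 6 bases of A or T and then GG. Each line is the 250 bases before the gene's start in RefSeq (GRCm38.p6), 5′ to 3′ on the gene's strand, with matches on either strand in capitals. The windows are chr19:34255374-34255623 (minus strand) for Acta2, chr8:123894776-123895025 (minus) for Acta1, chr3:145649986-145650235 (minus) for Ccn1 and chr9:102717554-102717803 (plus) for Amotl2.
Acta2: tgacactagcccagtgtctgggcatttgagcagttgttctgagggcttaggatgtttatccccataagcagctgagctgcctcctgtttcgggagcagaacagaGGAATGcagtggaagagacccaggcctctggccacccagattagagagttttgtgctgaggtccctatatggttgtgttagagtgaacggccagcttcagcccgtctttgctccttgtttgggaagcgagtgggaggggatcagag
Acta1: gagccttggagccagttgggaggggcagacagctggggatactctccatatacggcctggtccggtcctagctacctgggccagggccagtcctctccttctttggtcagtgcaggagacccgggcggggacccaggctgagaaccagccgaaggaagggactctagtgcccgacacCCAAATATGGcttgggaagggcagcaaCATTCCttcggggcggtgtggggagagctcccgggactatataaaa
Ccn1: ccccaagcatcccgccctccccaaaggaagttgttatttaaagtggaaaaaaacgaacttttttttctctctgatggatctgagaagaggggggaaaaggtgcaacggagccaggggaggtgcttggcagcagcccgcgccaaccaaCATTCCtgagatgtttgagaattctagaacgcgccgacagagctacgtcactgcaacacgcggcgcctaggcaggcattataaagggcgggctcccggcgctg
Amotl2: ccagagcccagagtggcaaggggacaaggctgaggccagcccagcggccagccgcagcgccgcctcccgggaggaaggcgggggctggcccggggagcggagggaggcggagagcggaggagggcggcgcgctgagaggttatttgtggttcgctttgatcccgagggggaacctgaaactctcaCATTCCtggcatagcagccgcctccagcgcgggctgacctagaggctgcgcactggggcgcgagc
Acta2 holds 1 GGAATG match, Ccn1 and Amotl2 hold 1 each on the opposite strand (CATTCC), and Acta1 holds 1 on the opposite strand beside 1 CArG box. Only exact matches are marked. The Acta2 line also holds stretches that are 1 base off the CArG pattern and are left unmarked, so it is not shown to lack such sites. GGAATG on either strand was found in 11 of the 23 measured list members with a promoter sequence, and the CArG box in 4. GGAATG was in 7 of the 12 called lower and in 4 of the 11 not called, and the CArG box in 1 and 3. Over all 11457 tested genes with a sequence the shares were 10.9% and 1.11%. Known YAP targets make up part of the list, so shares above those of all genes do not link a motif to the falls. The motifs were chosen after the values were seen, a match is only a match of letters, and 73.1% of tested genes had a sequence.

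Acta2 and Tagln are also feeder fibroblast markers, and 5 of the 23 measured feeder markers were lower (21.7%) and 0 higher, with a median log2 fold change of -0.39 and 18 of the 23 below 0. The collagens Col1a1 and Col1a2 fell from 16.2 to 5.32 and 6.92 CPM (-1.40 ± 0.21, adjusted p = 0.0098) and from 6.15 to 2.16 and 1.58 (-1.72 ± 0.27, adjusted p = 0.0104), and Col5a2 by 1.95 on the log2 scale. Without 1 single knockout library 4 or 5 markers were lower. The list medians of DKO minus Pcgf3KO and minus Pcgf5KO were 0.23 and -0.01. In the 8-library fit 5 markers were tested and 0 were called, with a median of 0.03. Other defining markers of fibroblasts were not called: Thy1 read 22.1 and 33.3 CPM in DKO against 19.8, and Pdgfrb 2.74 and 3.16 against 3.07. Also not called were Fbn1 (4.27 and 6.72 against 11), Lox (0.58 and 0.593 against 2.22) and Timp1 (23.3 and 24.3 against 31.1). Fn1, the most abundant of the list, read 1138 and 974 against 1091. In the single knockouts Thy1 read 12.6 to 17.8 CPM and Col1a1 5.19 to 7.93. The part of feeder cells in the falls of Acta2, Tagln and the collagens was not tested, and fewer cells of a type cannot be told apart from less RNA per cell in these bulk libraries.

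Keratins and junction proteins of epithelia were the second group that fell. Of 22 measured members 10 were lower (45.5%) and 1 higher, with a median of -0.53. Krt8 and Krt18 went from 418 to 69.8 and 115 CPM and from 278 to 50.9 and 90.4, so that DKO replicate 1 was the lower in both, and Krt7 and Krt19 fell by 1.04 and 0.83 on the log2 scale. Desmosomes, which anchor keratins at cell contacts, were represented by Dsp (above), Dsc2 (-1.04 ± 0.19, adjusted p = 0.0229), Dsg2 (-0.60 ± 0.14, adjusted p = 0.0457), Perp (-1.55 ± 0.14, adjusted p = 0.00087) and plakoglobin (Jup, -0.44 ± 0.10, adjusted p = 0.0402), all lower. Pkp2, the desmosomal plakophilin with the highest level, read 88.8 and 101 CPM against 93.2 (0.02 ± 0.11, adjusted p = 0.928). Among tight junction claudins, Cldn6 fell from 123 to 53.2 and 78.1 (-0.91 ± 0.18, adjusted p = 0.0279), while Cldn4 with 126 and 173 against 213 (adjusted p = 0.122) and Cldn7 with 35.6 and 53.5 against 65.8 (adjusted p = 0.158) did not pass. E-cadherin (Cdh1) read 511 and 522 CPM against 643 (-0.32 ± 0.08, adjusted p = 0.0598) and Epcam 311 and 325 against 379 (-0.25 ± 0.08, adjusted p = 0.156). Krt42 was the single riser, from 18.3 to 36.0 and 37.9 (1.01 ± 0.12, adjusted p = 0.00288). With 1 single knockout library left out 4 members were lower. The list medians of DKO minus Pcgf3KO and minus Pcgf5KO were -0.41 and -0.22. In the 8-library fit 2 of 2 tested members were lower, with a median of -0.76.

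**Figure D3:**
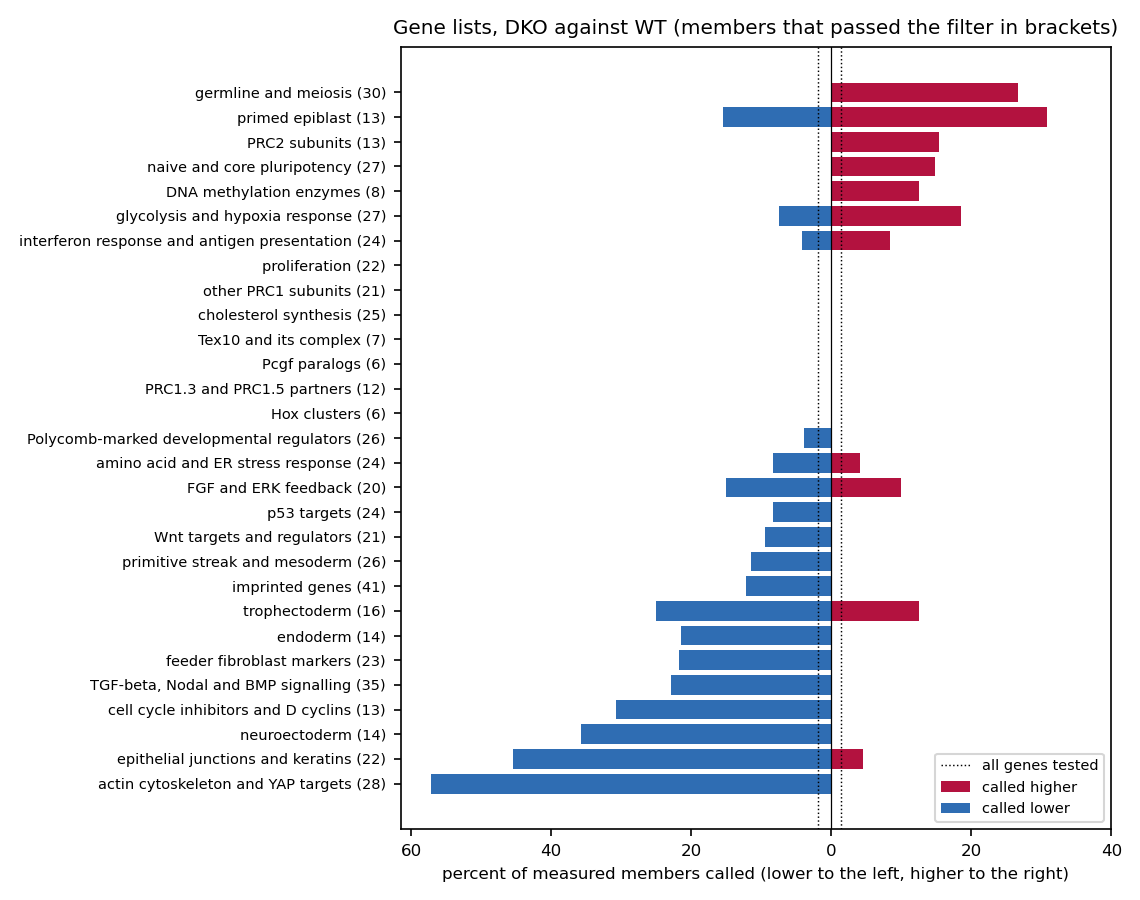
Percent of the measured members of each gene list that were called lower (blue, to the left) or higher (red, to the right) in DKO, with the number of measured members in brackets and the shares over all genes tested (1.89% lower and 1.33% higher) as dotted lines. The longest bars are the 57.1% lower of the actin and YAP list and the 45.5% lower of the epithelial list. Lists with fewer than 6 measured members are left out.

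The core pluripotency factors were not called, while some members around them rose. Pou5f1 read 207 and 199 CPM in DKO against 196 (0.05 ± 0.09, adjusted p = 0.774), Sox2 409 and 410 against 367 (0.16 ± 0.08, adjusted p = 0.323) and Nanog 129 and 96.8 against 99.6 (0.18 ± 0.16, adjusted p = 0.575). Of the 27 measured members of the naive and core list 4 were higher (14.8%, against 1.33% of all genes) and 0 lower, with a median of 0.08. Tfcp2l1, a naive-state factor, rose from 103 to 182 and 171 CPM (0.77 ± 0.09, adjusted p = 0.00335). Klf4, a reprogramming factor, rose from 5.35 to 17.0 and 12.5 (1.46 ± 0.23, adjusted p = 0.0114), Tbx3, a T-box factor of the naive state, from 2.45 to 7.43 and 11.5 (1.95 ± 0.36, adjusted p = 0.0227), and Tcl1, a coactivator of Akt, from 6.21 to 10.6 and 13.6 (0.96 ± 0.20, adjusted p = 0.0377). Genes of the later, primed epiblast split both ways: Otx2, Zic2, Etv5 and Foxd3 were higher and Cdh2 and Krt18 lower among 13 measured (30.8% higher, 15.4% lower, median -0.04). Zic2 went from 19.3 to 57.0 and 46.4 CPM (1.42 ± 0.15, adjusted p = 0.00201) and Foxd3 from 15.3 to 23.1 and 26.9 (0.71 ± 0.15, adjusted p = 0.0337). Cdh2, the cadherin gained by mesenchymal and neural cells, went from 28.9 to 12.6 and 11.3 (-1.28 ± 0.15, adjusted p = 0.00304). Leaving out 1 single knockout library left 2 naive and 2 primed members higher (Tbx3 then had adjusted p of up to 0.0588). The medians of DKO minus Pcgf3KO and minus Pcgf5KO were -0.14 and -0.18 for naive and -0.05 and -0.20 for primed members. In the 8-library fit 1 naive member was tested and not called. Of 3 primed members 1 was higher there (median -0.03).

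Some germline and meiosis genes rose, and no member of that list was called lower. Of 30 measured members 8 were higher (26.7%), and the median log2 fold change was 0.70. After Rhox5 came Tdrd12, a piRNA-pathway protein, from 64.9 to 148 and 120 CPM (1.04 ± 0.13, adjusted p = 0.00402), and Rhox6, a cluster neighbour of Rhox5, from 4.21 to 8.17 and 9.64 (1.08 ± 0.22, adjusted p = 0.0323). The meiotic cohesin genes Smc1b and Stag3 rose from 0.512 to 3.11 and 2.77 CPM (2.50 ± 0.49, adjusted p = 0.0291) and from 6.43 to 11 and 11.8 (0.82 ± 0.18, adjusted p = 0.0385). Hormad1, a protein of the meiotic chromosome axis, rose from 1.25 to 4.01 and 3.56 (1.59 ± 0.33, adjusted p = 0.0337). Others of the germline did not follow: Ddx4 (the germ cell helicase Vasa) read 27.5 and 27.4 CPM against 29.4 (adjusted p = 0.69), Piwil2 46.8 and 60.7 against 51.1 (adjusted p = 0.822) and Sycp3, of the synaptonemal complex, 3.58 and 2.92 against 3.59 (adjusted p = 0.814). With 1 single knockout library left out 3 or 4 were higher. The list median of DKO minus Pcgf3KO was -0.01 and that of DKO minus Pcgf5KO 0.36. In the 8-library fit 3 of 6 tested members were higher, with a median of 1.01.

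Among chromatin enzymes, Dnmt3l, the inactive cofactor of the de novo DNA methyltransferases, rose from 212 to 484 and 501 CPM (1.21 ± 0.09, adjusted p = 0.000563). It was the only 1 of 8 DNA methylation genes called, and the methyltransferases Dnmt3a, Dnmt3b and Dnmt1 read 242 and 234 against 221, 818 and 894 against 769, and 414 and 410 against 414. Tet2, a demethylase, showed the disagreement of the DKO libraries, with 69.2 and 31.1 CPM against 19.6 (1.35 ± 0.38, adjusted p = 0.0956), and Tet1 read 1103 and 636 against 636. In PRC2, the Polycomb complex that methylates histone H3, 2 of 13 measured subunits were higher: Suz12 with 446 and 364 CPM against 239 (0.76 ± 0.12, adjusted p = 0.0131) and Jarid2 with 661 and 581 against 463 (0.42 ± 0.10, adjusted p = 0.0471). The catalytic subunit Ezh2 read 129 and 114 against 121 (0.01 ± 0.10, adjusted p = 0.978) and Eed 184 and 177 against 167 (0.11 ± 0.09, adjusted p = 0.544). Jarid2 did not pass without any 1 of the single knockout libraries (adjusted p of up to 0.149), and Suz12 did not without either Pcgf5KO library (up to 0.0514). DKO minus Pcgf3KO and minus Pcgf5KO had medians of 0.03 and 0.05 for PRC2 and 0.01 and -0.07 for the DNA methylation genes. In the 8-library fit 2 of 6 tested PRC2 subunits were higher (median 0.13). Of 2 DNA methylation genes 0 were called there (median 0.21).

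None of the developmental genes in the Polycomb-marked and Hox lists was called higher. This covers those lists only: the developmental factors Otx2, Zic2 and Tbx3, counted in the primed and naive lists, were higher. Of the 26 measured Polycomb-marked regulators 0 were higher and 1 was lower (3.85%), with a median of -0.66 (-0.83 in DKO replicate 1 and -0.45 in replicate 2, minus WT replicate 2) and 20 of 26 below 0. Their median of DKO minus Pcgf3KO was 0.27 and that of DKO minus Pcgf5KO 0.31, so the shift below WT replicate 2 was not particular to DKO. The called gene was Lhx9, a LIM homeobox gene of the gonads and brain, at 2 counts in both DKO libraries together against 37 in WT replicate 2 (ratio 0.0242, 95% counting interval 0.00283 to 0.0939). Of 39 Hox genes 6 passed the filter on low counts and 0 were called. Their median was -0.01 (-0.39 in DKO replicate 1 and 0.39 in replicate 2, minus WT replicate 2). The Hox medians of DKO minus Pcgf3KO and minus Pcgf5KO were 0.91 and 0.82, and 0 of the 6 passed the test against either. In the 8-library fit 2 Polycomb-marked regulators and 1 Hox gene were tested and 0 called, with medians of 0.05 and -0.07. Of the differentiation markers, 5 of 14 measured neuroectoderm genes were lower (35.7%, median -0.91, all 14 below 0), 3 of 14 endoderm genes (21.4%, median -0.58), 3 of 26 mesoderm genes (11.5%, median -0.24) and 4 of 16 trophectoderm genes (25%), where 2 were higher (median -0.44). The lower trophectoderm genes include Krt8 and Krt18, already counted among the epithelial genes above. The medians of DKO replicates 1 and 2 minus WT replicate 2 were -0.87 and -0.70 for neuroectoderm, -0.61 and -0.40 for endoderm, -0.60 and -0.02 for mesoderm, and -0.93 and -0.13 for trophectoderm, so most of the fall in the last 2 medians was in replicate 1. Neurod1, a neuronal bHLH factor, fell from 41.2 to 19.3 and 18.4 CPM (-1.13 ± 0.13, adjusted p = 0.00288), and the neuronal tubulin Tubb3 from 225 to 98.2 and 140 (-0.92 ± 0.17, adjusted p = 0.0214). Tbx20, a cardiac T-box factor, fell from 16.1 to 5.69 and 5.39 (-1.54 ± 0.18, adjusted p = 0.00288), and the VEGF receptor Kdr from 30.5 to 8.70 and 12.6 (-1.51 ± 0.21, adjusted p = 0.00563). In the 8-library fit Kdr had 82.3 and 172 CPM in WT and 49.2 and 71.3 in DKO (-1.07 ± 0.29, adjusted p = 0.0453). Col4a1 and Col4a2, basement membrane collagens read from a shared promoter region, fell by 0.91 and 1.26, and the gap junction gene Gjb5 rose from 5.24 to 15.5 and 18 CPM (1.68 ± 0.20, adjusted p = 0.00274). With 1 single knockout library left out 1 neuroectoderm gene was lower, and 2 in each of the endoderm, mesoderm and trophectoderm lists. DKO minus Pcgf3KO and minus Pcgf5KO had medians of -0.08 and -0.11 (neuroectoderm), 0.09 and 0.00 (endoderm), 0.13 and -0.12 (mesoderm) and -0.43 and 0.03 (trophectoderm). In the 8-library fit the medians were -1.11 (neuroectoderm, 1 tested), -0.75 (endoderm, 3), -0.17 (mesoderm, 5) and 0.13 (trophectoderm, 3). There 1 endoderm and 1 mesoderm gene were lower.

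In signalling, 8 of 35 measured genes of the TGF-beta, Nodal and BMP list were lower (22.9%) and 0 higher, with a median of -0.23. Ligands, receptors, targets and antagonists were all among them: the ligand Tgfb2 fell from 6.32 to 1.53 and 2.03 CPM (-1.82 ± 0.34, adjusted p = 0.0228), the receptor Tgfbr2 from 7.63 to 3.32 and 3.90 (-1.08 ± 0.24, adjusted p = 0.0459), and the targets Tagln and Id2 by 1.58 and 0.63 on the log2 scale. The matrix protein Thbs1, which activates latent TGF-beta, the antagonist Nog and the protease Bmp1 were lower too. Leaving out 1 single knockout library gave 3 or 4. The list medians of DKO minus Pcgf3KO and minus Pcgf5KO were 0.13 and 0.02. In the 8-library fit 4 of 7 tested members were lower, with a median of -1.01. In the FGF and ERK list 3 of 20 were lower (15.0%) and 2 higher (10%), with a median of -0.52: the feedback phosphatases Dusp6 (171 to 91.0 and 114 CPM) and Dusp5 (30.6 to 15.1 and 20.2) and Myc (129 to 71.2 and 88.5) fell, and the ligand Fgf4 (202 to 322 and 274) and Etv5 (502 to 670 and 661) rose. None of these 5 was called when 1 single knockout library was left out. For the FGF and ERK list the medians of DKO minus Pcgf3KO and minus Pcgf5KO were -0.06 and -0.03. In the 8-library fit 1 of its 2 tested members was higher (median 0.10). In the Wnt list 2 of 21 were lower, Myc and Ccnd1, and the median was 0.03, with 0 lower when 1 single knockout library was left out. Its medians of DKO minus Pcgf3KO and minus Pcgf5KO were 0.03 and -0.03.

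Cell cycle inhibitors with the D cyclins had 4 of 13 lower (30.8%, median -0.47), whereas 0 of 22 proliferation genes were called (median 0.06). Cdkn1b, the inhibitor p27, fell from 26.4 to 13.5 and 10.5 CPM (-1.14 ± 0.17, adjusted p = 0.00867), and Cdkn2b, the inhibitor p15, from 9.05 to 2.90 and 4.10 (-1.37 ± 0.26, adjusted p = 0.0262). The imprinted inhibitor Cdkn1c fell from 97.6 to 44.9 and 66.1 (-0.81 ± 0.18, adjusted p = 0.0449) and Ccnd1 from 161 to 112 and 121. Of 41 measured imprinted genes 5 were lower (12.2%) and 0 higher, with a median of -0.04: Grb10, a growth-limiting adaptor, went from 550 to 218 and 283 CPM (-1.14 ± 0.13, adjusted p = 0.00229), Igf2, a fetal growth factor, from 268 to 95 and 157 (-1.09 ± 0.21, adjusted p = 0.0292), and Nnat, Mest and Cdkn1c fell by 1.17, 0.87 and 0.81. Of 24 p53 targets 2 were lower, Perp and the kinase Plk2 (91.0 to 41.7 and 49.1 CPM, -1.0 ± 0.13, adjusted p = 0.00388). With 1 single knockout library left out the cell cycle list had 1 and the imprinted list 3 lower, and the p53 list 2. DKO minus Pcgf3KO and minus Pcgf5KO had medians of -0.37 and -0.33 (cell cycle), 0.12 and 0.09 (imprinted) and 0.23 and 0.09 (p53). In the 8-library fit 2, 6 and 2 members were tested in the same order and 0 were called. The medians there were -0.24, 0.09 and 0.04.

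Metabolic and stress lists gave small, split counts. In glycolysis and hypoxia 5 of 27 were higher (18.5%) and 2 lower (7.41%), with a median of 0.19. Bnip3, a mitophagy receptor induced by hypoxia, rose from 35.2 to 114 and 89.7 CPM (1.53 ± 0.15, adjusted p = 0.00135), Egln3, a prolyl hydroxylase of HIF, from 12.4 to 36.4 and 24.9 (adjusted p = 0.0188) and Pdk1 from 175 to 244 and 258. The glucose transporters went the other way, Slc2a3 from 491 to 305 and 301 (-0.70 ± 0.08, adjusted p = 0.00251) and Slc2a1 from 406 to 284 and 310 (-0.45 ± 0.09, adjusted p = 0.0331). None of 25 cholesterol synthesis genes was called (median -0.09). In the ER and amino acid stress list Atf4 (397 to 250 and 293 CPM) and Atf3 (8.31 to 2.79 and 3.95) fell and Xbp1 (60.7 to 80.9 and 95.5) rose among 24, and none of these 3 was called with 1 single knockout library left out. Of 24 interferon and antigen presentation genes Ube2l6 and Oas1a rose and B2m fell. With 1 single knockout library left out, 1 or 2 glycolysis and hypoxia genes and 1 interferon gene were higher, and 1 glycolysis and hypoxia gene was lower. DKO minus Pcgf3KO and minus Pcgf5KO had medians of -0.09 and -0.07 (glycolysis and hypoxia), -0.17 and -0.17 (stress) and 0.32 and -0.09 (interferon). In the 8-library fit the glycolysis and hypoxia median was 0.26, with 3 of 9 higher and 1 lower. The stress median was 0.00 there (0 of 6 called) and the interferon median 0.30 (1 of 5 higher).

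Whether the loss of both proteins goes beyond the loss of either was asked by testing DKO directly against each single knockout, in contrasts that share the DKO libraries. DKO differed from Pcgf3KO in 272 genes (1.74% of 15669; 115 higher, 0.734%, and 157 lower, 1%) and from Pcgf5KO in 357 (2.28%; 156 higher, 0.996%, and 201 lower, 1.28%). Among the 2702 genes of the 8-library fit DKO differed from Pcgf3KO in 14 (0.518%; 0.148% higher and 0.37% lower) and from Pcgf5KO in 64 (2.37%; 1.22% higher and 1.15% lower). Of the 209 genes higher in DKO than in WT, 147 passed the test against neither single knockout, and of the 296 lower, 221. In the 8-library fit 109 of the 119 higher and 89 of the 100 lower genes passed against neither. Further from WT than both single knockouts, by a passed test against each, were 17 of the higher and 29 of the lower genes, 10 and 8 of them more than 2-fold from WT. Nearer to WT than both were 3 and 2. In the 8-library fit 0 of the 119 higher and 2 of the 100 lower genes were further from WT than both. Of the 46 only Ppp1r18 and Slc2a1 could be tested with both WT libraries: both were lower than WT there, and Ppp1r18 again passed against both single knockouts, while Slc2a1 did not pass against Pcgf3KO (adjusted p = 0.0656).

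Rhox5 was among the 46. Its single knockouts, with 16.9, 16.6, 14.1 and 18.5 CPM, lay close to the 13.3 of WT replicate 2, and its DKO libraries at 63.3 and 77.2 (DKO minus Pcgf3KO 2.07, adjusted p = 0.000541; minus Pcgf5KO 2.12, adjusted p = 0.000702). Tbx3 showed the same shape, with 1.48 to 2.17 CPM in the single knockouts and 7.43 and 11.5 in DKO (2.33, adjusted p = 0.00584, and 2.45, adjusted p = 0.0112). Otx2 stood at 4.08 to 4.85 in the single knockouts, between WT replicate 2 and DKO (1.51, adjusted p = 0.00978, and 1.36, adjusted p = 0.0211). Zic5, a zinc finger factor next to Zic2, read 35.8 to 39.8 CPM in the single knockouts, 26.2 in WT replicate 2 and 86.1 and 57.0 in DKO. The heparan sulfate proteoglycan Sdc4 read 110 to 116 in the single knockouts, below the 132 of WT replicate 2, and 176 and 176 in DKO, and Nlrp4f, an oocyte-expressed NLR gene, 58.6 to 64.3 against 62.0 and then 96.3 and 104. The other 11 that were higher are Hydin, Slc5a1, Dnah8, Gm17167, Aifm3, Plekha6, Cacna2d2, Rgs9, Saa3, Abcc8 and Epb41l4b, of which Hydin and Dnah8 belong to motile cilia.

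Acta2 led the falls past both single knockouts together with Lhx9. It read 5.69 and 4.92 CPM in Pcgf3KO and 7.87 and 8.73 in Pcgf5KO, between the 11.1 of WT replicate 2 and the 0.685 and 1.04 of DKO (-2.61, adjusted p = 0.00313, and -3.25, adjusted p = 0.000825). Tagln read 32.7 to 41.9 in the single knockouts and 17.0 and 17.2 in DKO (-1.04, adjusted p = 0.00328, and -1.24, adjusted p = 0.00236). Igf2bp3, an oncofetal RNA-binding protein, read 19.6 to 28.1 CPM in the single knockouts around the 22.9 of WT replicate 2, and 9.75 and 5.58 in DKO (-1.44, adjusted p = 0.0134, and -1.86, adjusted p = 0.0112). Cdkn1b read 19.3 to 23.3 in the single knockouts and 13.5 and 10.5 in DKO. The actin sequestering peptide Tmsb4x read 410 to 433 CPM in the single knockouts and 283 and 284 in DKO, and Dstn, which severs actin filaments, 589 to 607 and then 465 and 472. The calpain subunits Capn2 and Capns1, the galectins Lgals1 and Lgals3, S100a6 and S100a10, Csrp1, the junction proteins Cgn, Cldn6 and Jup, and the transglutaminase Tgm1 are also among the 29. S100a6 moved apart in the knockouts, from 41.8 CPM in WT replicate 2 to 17.0 and 25.5 in DKO, while Pcgf3KO had 71.0 and 74.5 and Pcgf5KO 40 and 43.6. Others are Ngfr, Nr4a1, Tmem88, Ppp1r18, Plaur, Gng3, Bcam, Gpx1, Midn and Slc2a1. Leaving out any 1 single knockout library left Rhox5 as the single higher gene and Acta2 as the lower one, with Tagln and Tgm1 beside it without Pcgf3KO replicate 1. Without DKO replicate 1 or 2 the counts were 186 and 1474 higher and 203 and 1423 lower.

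**Figure D4:**
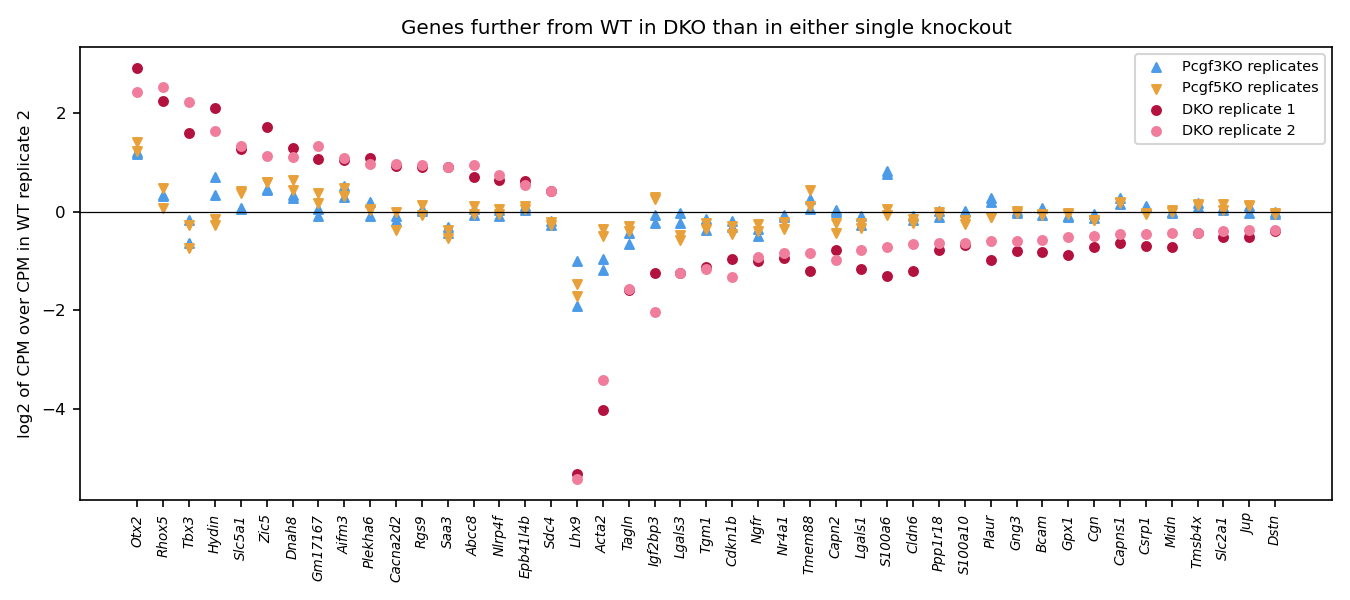
For 45 of the 46 genes further from WT in DKO than in either single knockout, log2 of the CPM in each library over that in WT replicate 2 (the line at 0), 1 symbol per library. The DKO circles lie above every single knockout triangle for the 17 genes on the left and below them for the 28 on the right, and for Rhox5 the triangles stay near 0.

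Other genes lay in DKO near the level of 1 single knockout and apart from the other. Efhc2 read 2.27 and 2.17 CPM in DKO and 2.42 and 2.13 in Pcgf3KO, but 15.7 and 12.4 in Pcgf5KO and 21.6 in WT replicate 2 (DKO minus Pcgf3KO -0.04, adjusted p = 0.948; minus Pcgf5KO -2.66, adjusted p = 0.000702). Smtnl1 went with the other knockout: 8.70 and 7.96 CPM in DKO, 9.35 and 10.4 in Pcgf5KO and 2.22 and 2.52 in Pcgf3KO (1.81 against Pcgf3KO, adjusted p = 0.00328). Its neighbour on chromosome 2, Ube2l6, a conjugating enzyme of the ubiquitin-like ISG15, read 15.0 and 17.4 in DKO, 21.2 and 21.4 in Pcgf5KO, 5.89 and 6.54 in Pcgf3KO and 7.29 in WT replicate 2 (1.38 against Pcgf3KO, adjusted p = 0.00328). Platr13 in the 8-library fit read 39.2 and 50.2 in Pcgf5KO and 2.84 and 3.79 in Pcgf3KO, and the DKO values of 50.1 and 49.5 lay 3.90 above Pcgf3KO (adjusted p = 2.91e-05) and 0.16 above Pcgf5KO (adjusted p = 0.606). A p that misses the threshold does not show that these levels are equal.

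The DKO libraries differed from each other more than the libraries of the other groups did. A 2-fold difference between them was found in 802 of 15669 genes (5.12%), against 364 (2.32%) in Pcgf3KO and 483 (3.08%) in Pcgf5KO, with median absolute log2 differences of 0.24, 0.11 and 0.10. In the 8-library fit the WT libraries differed 2-fold in 68 of 2702 genes (2.52%, median 0.15) and the DKO libraries in 122 (4.52%, median 0.24). Relative to WT replicate 2, 417 genes were 2-fold higher and 229 2-fold lower in both DKO libraries, 1153 were past 2-fold in replicate 1 only and 342 in replicate 2 only, and 3 went in opposite directions. Among called genes, DKO replicate 1 lay further from WT in 137 of the 209 higher and 211 of the 296 lower. The genes furthest apart on opposite sides of WT replicate 2 were not called: Sap18b read 2.37 and 18.4 CPM against 5.47, Mt2, a metallothionein, 43.4 and 124 against 67.5 (0.31; -0.13 in the 8-library fit, where WT read 659 and 381), and Hand1, a bHLH factor of heart and trophoblast, 16.0 and 46.4 against 45.8. Ccdc141 (14.4 and 5.54 against 7.97), Tmem151b (2.16 and 5.88 against 4.61) and Tmem54 (2.11 and 5.44 against 5.35) complete the 6 named. Sap18b has a close copy elsewhere, and its reads may be split.

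**Figure D5:**
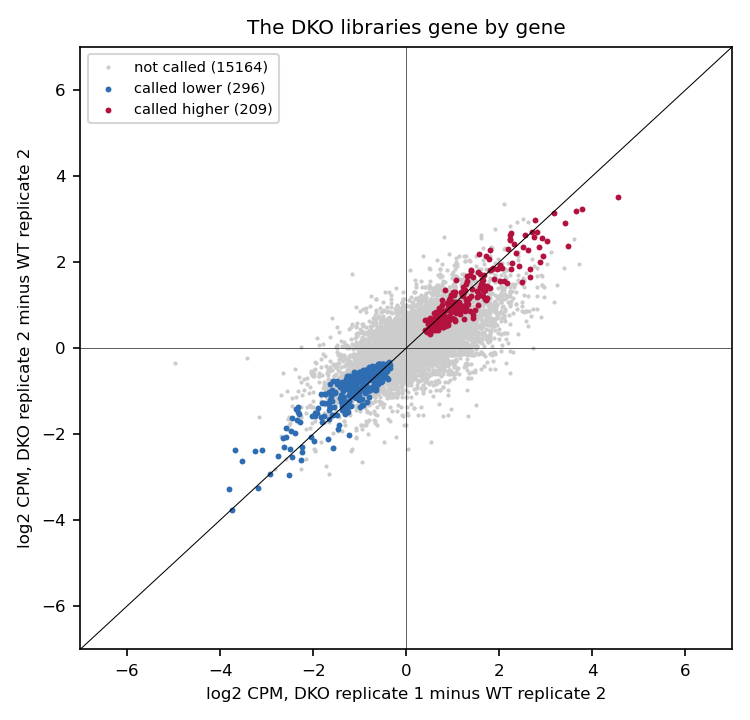
Log2 CPM of DKO replicate 1 (x) and replicate 2 (y), each minus WT replicate 2, for the 15669 genes tested, with the 209 called higher in red, the 296 called lower in blue and the others in grey, and the line of equality drawn. Called genes lie near the line and, by the rule of calling, in the upper right and lower left. The grey cloud is wider along the x axis.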

How the data were processed

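Deposited tables of raw read counts per gene, one per library, were used. Per the submitters' processing notes TopHat2 2.0.12, Cufflinks 2.2.1, HTSeq 0.6.0 and genome build mm10 were used; the notes as given name neither their roles nor their settings. Per the labels' protocols RNA was selected with poly-T and made into libraries with a NEBNext Ultra kit. Of 47069 gene identifiers 46488 were given a symbol, and 0 entries of the tables named no gene. With edgeR 4.0.16 in R 4.3.3, counts were filtered by filterByExpr, scaled by TMM and fitted by quasi-likelihood with group as the only term, which left 2702 genes (8 libraries, over 99.92% of the counts) and 15669 (7 libraries, 99.93%). DKO was compared with WT, Pcgf3KO and Pcgf5KO, with Benjamini-Hochberg adjustment over all genes tested. The same functions were also run on simulated counts, built from the fitted means, library sizes and dispersions of these data.

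Members and the 30 gene lists were chosen with earlier results of these data known, so list counts are descriptions. The genes named as largest changes have a mean log2 CPM of at least 2 and are the 12 (7 libraries) or 8 (8 libraries) with the widest gap between the nearest DKO and WT libraries. From the lists, members with the smallest p were named, and others were added after their values were seen, as were the 46 genes past both single knockouts. Counting intervals are exact and cover counting error only. Alternatives were RLE scaling, DESeq2 1.42.0, no filter, only WT and DKO libraries, a replicate block, another prior count (0.5 in place of 2) and leaving out each library. A promoter sequence from RefSeq was at hand for 73.1% of tested genes, so the planned comparison of promoter GC and CpG content was void. Some results are not reported here, in the text or the figures.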

Additional observations from a re-analysis of the deposited data

Results flagged for a closer look

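The fits also gave a test of whether the DKO log2 fold change differs from the sum of the changes in Pcgf3KO and Pcgf5KO, all against the same WT libraries. This difference passed in 594 of 15669 genes with 7 libraries (3.79%) and in 187 of 2702 with 8 (6.92%). All values are log2 differences with an adjusted p (edgeR quasi-likelihood test) of at most 0.05. The WT level is part of each of the 3 changes, and with 7 libraries it comes from 1 library.

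Of the 46 genes further from WT than both single knockouts, 17 (6 higher and 11 lower) changed further than the sum in the direction of their own change. Among the genes picked by size of change or by the smallest p within a list, this held for 4. These were Rhox5 (1.78), Tbx3 (2.84) and Tfcp2l1 (0.59) above it and Acta2 (-2.19) below it. It also held for S100a6 (-1.77), Jup (-0.62) and Slc2a1 (-0.62), which were named beside that rule. The genes that follow are those picked by the rule. Genes that rose by less than the sum were Slfn9 (-2.86), Slc4a5 (-1.32), As3mt (-3.27), Rec114 (-1.64), Lemd1 (-2.49), Dnmt3l (-1.84), Tdrd12 (-0.81), D1Pas1 (-1.75), Bnip3 (-1.14), Egln3 (-1.27) and Xbp1 (-1.78). Dnmt3l read 642 and 695 CPM in Pcgf3KO and 564 and 559 in Pcgf5KO, both above its 484 and 501 in DKO. Genes that fell by less than the sum were Thbs1 (1.08), Vgf (1.94), Dsp (1.43), Car2 (1.49), Tbx20 (1.35), Col4a1 (2.16), Col4a2 (2.48), Dab2 (1.56), Map2 (0.81), Perp (0.87), Plk2 (1.79), Ccn1 (1.43) and Atf3 (1.65). Thbs1 read 17.4 and 18.3 CPM in Pcgf3KO and 16.7 and 20.5 in Pcgf5KO, near the 9.96 and 12.5 of DKO, against 62.0 in WT replicate 2. Dppa3 (-1.28) and Hand1 (4.64) were not called between DKO and WT. With 8 libraries the values were -2.67 for Lemd1, -1.83 for D1Pas1, 2.57 for Csf1 and 0.78 for Itpkb. Groups of 2 libraries are too small for a check on outlying samples.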

How the results depend on the processing

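With 8 libraries (119 higher, 100 lower) the counts were 184 and 169 without the filter, 44 and 38 with only WT and DKO libraries, and 29 to 385 and 31 to 379 with 1 library left out. RLE scaling gave 120 and 109 and DESeq2 117 and 93. With 7 libraries (209 and 296) they were 734 and 731 without the filter, 154 and 175 with only WT and DKO libraries, and 68 to 2644 and 97 to 2735 with 1 library left out; RLE gave 209 and 311 and DESeq2 234 and 283. WT replicate 2 could not be left out there. Leaving out a DKO library removes the spread between the DKO libraries from the estimate. The median of all genes stayed at or under 0.02 in each scaling. The genes past both single knockouts (17 and 29) were 17 and 31 with RLE and 1 to 1474 and 1 to 1423 with 1 library left out. At a prior count of 0.5 genes past 2-fold in opposite directions went from 3 to 19. No cause of these shifts was tested.

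Replicate numbers are shared by the groups, but deviations correlated at 0.20 between WT and DKO and at -0.06 to 0.09 between other groups, so the numbers were not taken to pair libraries. A replicate block gave 170 and 138 calls with 8 libraries, 204 and 289 with 7, and 27 and 46 genes past both single knockouts. The block made Pcgf3 pass (-0.60, adjusted p = 0.0303).

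Directions turned in genes that were not called: with the block Dppa3 (0.01) and Ccdc141 (-0.01); without DKO replicate 1 (value without replicate 2 second) Dppa3 (0.14, -0.28), Usp7 (-0.01, 0.13), Csnk2b (0.08, -0.20), Hand1 (0.02, -1.52), Tmem151b (0.35, -1.09), Ccdc141 (-0.53, 0.85) and Tmem54 (0.02, -1.34); without DKO replicate 2 (value without replicate 1 second) Csnk2a1 (0.03, -0.11), Rybp (0.06, -0.14), Sap18b (-1.20, 1.75) and Mt2 (-0.63, 0.88). Without the filter list medians became -0.80 (endoderm), 1.11 (2-cell-like state), -0.25 (p53 targets), -0.23 (feeder fibroblast markers) and 0.05 (proliferation). Of the called genes picked by the naming rule, 51 of 69 (7 libraries) and 12 of 16 (8 libraries) passed with every library left out in turn. Over all 145 genes named in the text and called with 7 libraries, 74 passed every time and 71 did not pass without at least 1 single knockout library: Abcc8, Actn1, Ahnak, Atf3, Atf4, B2m, Bcam, Bmp1, Cacna2d2, Capns1, Ccnd1, Cdkn1c, Cdkn2b, Cgn, Cldn6, Col5a2, Csrp1, Dab2, Dsc2, Dsg2, Dstn, Dusp5, Dusp6, Egln3, Epb41l4b, Etv5, Fgf4, Foxd3, Gm17167, Gng3, Gpat2, Gpx1, Hormad1, Hydin, Id2, Igf2, Jarid2, Jup, Krt19, Krt7, Map2, Midn, Myc, Ndufa4l2, Nlrp4f, Nog, Oas1a, Pdk1, Plaur, Plekha6, Ppp1r18, Rgs9, Rhox6, S100a11, S100a6, Saa3, Sdc4, Slc2a1, Slc5a1, Smc1b, Stag3, Suz12, Tbx3, Tcl1, Tgfb2, Tgfbr2, Tmem88, Tmsb4x, Tpm1, Tubb3 and Xbp1. Each of the 145 passed with either DKO library left out.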

Other observations

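Genes called in DKO lay on every autosome and on the X chromosome. Of 567 tested X-linked genes 10 were higher (1.76%) and 17 lower (3%), and on chromosome 11, which carries the Schlafen cluster, 28 of 1309 were higher (2.14%) and 24 lower (1.83%). Chromosome 4 had 17 higher (1.67%) and 7 lower (0.689%) of 1016, and chromosome 3 had 7 higher (0.909%) and 21 lower (2.73%) of 770. Over all genes tested 1.33% were higher and 1.89% lower. The shares per chromosome were not tested. None of the 9 tested Y-linked genes was called.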
